A study of Mus musculus with 16 samples.

Results

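The sequences described here come from genome intervals that the array lists as intergenic, away from the protein-coding gene in front of them, although some of the intervals hold an annotated transcript. Agilent mouse arrays carry 60-base sequences that are named only by a genome interval and a strand, and each of these reads RNA from 1 strand of that interval. Such a sequence was included when no array sequence for a protein-coding transcript (an accession starting with NM_) lay within 20 kb upstream of it on the same strand. The rule used positions and no measured value. It gave 13233 sequences in 3805 intervals, of 16181 intergenic sequences in 4607 intervals and 55681 sequences on the array. An interval held a median of 3 of them and at most 10, so sequences of 1 interval may read the same RNA and are not replicates of each other.

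RAW264.7 cells are a mouse line, derived from a virus-induced tumour, that behaves much like macrophages. All cells were preincubated for 60 min and incubated for 120 min in total, with the DMSO vehicle or with cordycepin at 20 μM, and either without LPS or with LPS at 1 μg/ml for the last 60 min. The conditions are named DMSO, cordycepin, LPS+DMSO and LPS+cordycepin. Each had 4 biological replicates, collected on different days, with 1 array per culture and 16 arrays in all.

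RNA polymerase II makes many transcripts outside protein-coding genes. Among them are long noncoding RNAs, the primary transcripts from which miRNAs are cut, short-lived RNAs from enhancers and promoters, and the RNA that lies beyond the end of a gene when transcription runs on past the site where the messenger is cleaved and polyadenylated. Most of the RNAs from enhancers and promoters are degraded in the nucleus within minutes, so their level follows synthesis and decay closely. LPS, a component of the bacterial cell wall, switches transcription in macrophages through Toll-like receptor signalling. Cordycepin is 3'-deoxyadenosine. It lacks the hydroxyl group to which the next nucleotide would be joined, and it is known to inhibit polyadenylation.

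The first set of sequences is shown because each stands for an interval that, between its flanking protein-coding genes, also holds a miRNA gene in RefSeq. Positions are those of the array files on mm9, and the order of the genes is that of RefSeq on GRCm38.p6. Sequences run 5' to 3' on the strand that is read, and capitals mark the hexamer AATAAA, the commonest polyadenylation signal, wherever a sequence holds it on that strand.

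Ncam2 to Mrpl39, chr16:84708738-84708797, forward strand: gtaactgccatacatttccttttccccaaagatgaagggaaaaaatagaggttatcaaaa
Klf14 to Mkln1, chr6:31078803-31078862, reverse strand: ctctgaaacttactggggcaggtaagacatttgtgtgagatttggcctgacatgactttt
Dipk2b to Chst7, chrX:18734109-18734168, reverse strand: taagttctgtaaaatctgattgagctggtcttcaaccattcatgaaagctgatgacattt
Nr5a2 to Ptprc, chr1:139822744-139822803, forward strand: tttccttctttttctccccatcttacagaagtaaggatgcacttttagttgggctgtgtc

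The mature miRNAs of those intervals, from RefSeq, are shown with the seed (bases 2 to 8), which pairs with target messengers, in capitals. The arrays did not measure the mature miRNAs.

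miR-155-5p: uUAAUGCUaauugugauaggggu
miR-29a-3p: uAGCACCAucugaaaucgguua
miR-29b-3p: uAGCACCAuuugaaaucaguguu
miR-221-3p: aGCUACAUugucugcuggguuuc
miR-222-3p: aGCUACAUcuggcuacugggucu
miR-181a-5p: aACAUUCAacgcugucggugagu
miR-181b-5p: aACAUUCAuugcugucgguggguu

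Within each of the last 3 intervals both miRNAs share a seed. miR-155 is known as an LPS-induced miRNA of macrophages. The second set is shown because these sequences carried the largest changes with cordycepin or a difference in the LPS response.

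Lyn to Rps20, chr4:3747110-3747169, forward strand: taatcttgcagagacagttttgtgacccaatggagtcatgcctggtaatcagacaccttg
the same interval, another sequence: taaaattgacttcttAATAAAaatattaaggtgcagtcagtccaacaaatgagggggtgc
Cerk to Tbc1d22a, chr15:86039021-86039080, reverse strand: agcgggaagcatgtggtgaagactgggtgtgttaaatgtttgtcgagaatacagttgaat
Meis2 to Tmco5, chr2:115900741-115900800, forward strand: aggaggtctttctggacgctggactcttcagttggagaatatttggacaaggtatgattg
the same interval, another sequence: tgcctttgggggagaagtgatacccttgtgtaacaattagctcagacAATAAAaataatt
Ccdc54 to Cblb, chr16:50753311-50753370, forward strand: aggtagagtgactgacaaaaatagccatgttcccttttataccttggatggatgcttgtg
Plekhb2 to Hs6st1, chr1:36016510-36016569, reverse strand: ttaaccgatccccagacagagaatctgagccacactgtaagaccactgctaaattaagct
Ccdc6 to Slc16a9, chr10:69682206-69682265, reverse strand: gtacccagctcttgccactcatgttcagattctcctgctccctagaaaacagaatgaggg

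The label was checked against positions. Members lay at a median of 159.1 kb from the nearest same-strand protein-coding sequence upstream, and 55 had none upstream. For 50 members, sequences of 1 protein-coding gene lay on both sides on the same strand, 768 had a protein-coding sequence within 20 kb downstream, and 726 of the 3805 intervals held another array sequence on the same strand (59 an NM_ and 192 a noncoding NR_ sequence). The label intergenic therefore did not hold for all intervals. As the distance is taken to an array sequence and not to the end of a gene, it does not give the length of a transcript.

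Signal from most of these sequences was low. Of the 13233, 6633 (50.1%) were well above background on no array and 1381 (10.4%) on all 16, whereas 29.3% of the NM_ sequences were on no array and 48.1% on all. On all 4 arrays of a condition, 1737 (13.1%) were well above background in DMSO, 2005 (15.2%) in cordycepin, 1761 (13.3%) after LPS with DMSO, and with both agents 1709 (12.9%). Detection followed the slide. Replicates 1 and 2 of every condition shared a slide, on which 14.2% to 22.9% were detected per array, and replicates 3 and 4 shared the other, with 25.7% to 33.7%.

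**Figure D1:**
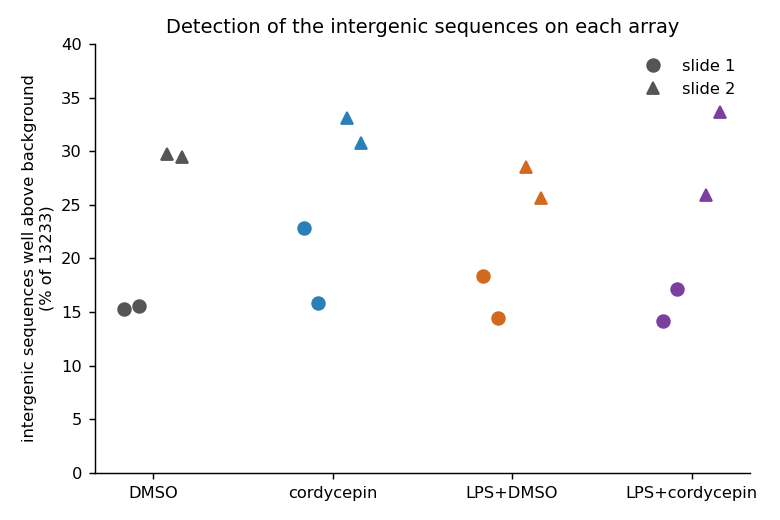
Share of the 13233 intergenic sequences well above background on each array, in percent, for the 4 conditions. Circles are arrays of slide 1 (replicates 1 and 2) and triangles arrays of slide 2 (replicates 3 and 4), and the shares on slide 2 (25.7% to 33.7%) are all above those on slide 1 (14.2% to 22.9%).

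A sequence was tested if any 1 condition had it well above background on each of its 4 arrays, which left 2245 of these 13233 (1236 intervals) among 21605 on the whole array. A sequence that passed only through the condition in which it was high had to differ, so counts are also given for the 1381 well above background on all arrays. Levels below are log2 intensities scaled to the 75th percentile of each array. They compare conditions for 1 sequence and not 1 sequence with another. A sequence was called higher or lower at an adjusted p under 0.05 (limma, Benjamini-Hochberg over all 21605) and a change of at least 2-fold. Comparisons that share arrays are not independent of each other. In total RNA from cultures, fewer cells with an RNA and less RNA per cell cannot be told apart.

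Known genes gave the context for the cells and the stimulus. All 10 LPS response genes of a list rose with LPS, by a median log2 change of 4.92. The 9 macrophage markers measured were well above background on all arrays, with a summed log2 level of 17.9 to 18.6. Of the marker lists for other cell types, T cell had 2 of 5 tested, B cell 2 of 4, endothelial 1 of 3, and fibroblast and epithelial 0 of 4 each. Summed log2 levels ranged from 10.0 to 11.5 for T cell, 6.37 to 10.2 for B cell, 11.2 to 12.1 for endothelial, 5.42 to 6.66 for fibroblast and 4.49 to 6.91 for epithelial markers. Among 46 genes for RNA 3' end formation and nuclear decay, 43 were tested, none was called with LPS and 1 was lower in each comparison of cordycepin with its DMSO control.

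The sequences with the brightest signal in DMSO included a pair at an RNA known to be abundant, although brightness also depends on the sequence. Of the 5 brightest, 4 lay at chr17:39982023-39983277 and in the overlapping chr17:39960567-39992817, which also holds the array sequence for Rn18s (the 18S ribosomal RNA), at chr11:22681800-22707775 and at chr14:78924115-78938125 between Akap11 and Dgkh. Their log2 levels in DMSO were 17.52 ± 0.29 to 17.99 ± 0.31 (SD, n = 4). None of these 4 was called in any comparison, with log2 changes of -0.52 to 0.21 in the comparisons of 2 conditions. The sequence between Akap11 and Dgkh read 17.69, 17.77, 17.63 and 17.84 in DMSO.

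The comparison of LPS+DMSO with DMSO gives the response to 60 min of LPS. More intergenic sequences fell than rose. Of 2245, 57 in 34 intervals were higher (2.54%, against 2.15% of all sequences tested) and 150 in 85 intervals were lower (6.68%, against 2.71%). The median log2 change was -0.07, and -0.04 over all sequences tested. Intergenic sequences with an NM_ sequence within 20 kb upstream, outside this set, also fell more often than they rose. Of 880 tested, 24 were higher (2.73%) and 49 lower (5.57%), with a median of -0.12, so the falls were not particular to this set. Among the 1381 on all arrays, 13 were higher (0.941%) and 38 lower (2.75%). The latter share was close to that of all sequences tested, whereas of the 18071 array sequences that were themselves on all arrays 1.51% were higher and 1.26% lower. Within slide 1 alone the counts were 37 higher and 102 lower, and within slide 2 alone 55 and 127.

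The interval between Ncam2 and Mrpl39 held the largest rise. RefSeq lists Mir155 and its host transcript Mir155hg there. The sequence at chr16:84708738-84708797 read 5.66, 5.26, 4.80 and 4.08 in DMSO and 11.08, 11.16, 11.31 and 10.76 in LPS+DMSO, and was well above background on 1 and 4 arrays. The groups lay far apart. Its log2 change was 6.13 (SE 0.62, adjusted p = 5.15e-06, n = 4). All 7 members of the interval, in 3 overlapping regions, were tested and all 7 rose, with log2 changes from 3.50 to 6.13. For 5 of the 7, which were well above background on no DMSO array, the change was a bound. A bound sets the mean of the bright condition against, on each dim array, the lowest signal well above background or the sequence's own, whichever was higher, and the 5 rose at least 17.2-fold, 15.2-fold, 14.1-fold, 13.9-fold and 8.01-fold.

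The rise was called within cordycepin too. In LPS+cordycepin the same sequence read 10.63, 10.50, 10.51 and 10.69, all below every LPS+DMSO array, and the log2 change from LPS+DMSO was -0.49 (SE 0.62, adjusted p = 0.69). In cordycepin without LPS it read 4.32, 4.95, 8.28 and 4.81, so that 1 array stood apart and widened the spread. None of the 7 was called in either comparison of cordycepin with its control (log2 changes -0.74 to 0.70 without LPS and -0.60 to -0.22 with it), and all 7 were called higher with LPS within cordycepin. Of these, 5 were on no cordycepin array and rose at least 18.2-fold, 13.5-fold, 12.1-fold, 11.4-fold and 3.67-fold, and the other two had log2 changes of 5.00 and 3.38. These comparisons share the LPS+cordycepin arrays.

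The interval between Dipk2b and Chst7, which holds Mir221 and Mir222, also rose. The sequence at chrX:18734109-18734168 read 8.96, 8.91, 9.22 and 8.75 in DMSO and 12.16, 12.43, 12.31 and 12.55 in LPS+DMSO, and LPS+cordycepin lay between them at 10.30, 10.64, 10.47 and 10.80. No 2 of these groups overlapped. The log2 change was 3.40 with LPS (SE 0.14, adjusted p = 2.48e-10) and -1.81 for LPS+cordycepin against LPS+DMSO (adjusted p = 1.67e-07). Cordycepin without LPS read 7.96, 8.02, 8.43 and 8.28, all below the DMSO arrays. That log2 change was -0.79 (adjusted p = 0.000795), short of 2-fold. Of 10 members in the interval, 7 were tested and 4 rose with LPS. The 3 of region chrX:18734106-18744367 changed alike, by 3.40 to 3.52 with LPS, and were the only ones of the 7 called lower for cordycepin with LPS (-1.81 to -1.73). With cordycepin without LPS the 3 had log2 changes of -0.86 to -0.75, and none was called.

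In the interval between Ccdc6 and Slc16a9, where RefSeq lists only Mrln (the muscle micropeptide myoregulin), 1 of 5 sequences of the region chr10:69669025-69686275 was tested. The other 4 had mean log2 levels of 3.11 to 3.88 in LPS+DMSO, where 1 of them was well above background on 1 array and the rest on none, so that the rise was measured in 1 sequence of the region only. The tested sequence read 6.83, 6.74, 6.84 and 6.91 in DMSO, 12.31, 11.86, 12.26 and 12.13 in LPS+DMSO, and 10.13, 9.42, 10.47 and 10.31 in LPS+cordycepin. The 3 groups were separate. LPS raised it by 5.31 on the log2 scale (adjusted p = 7.84e-10), and cordycepin with LPS lowered it relative to LPS+DMSO, by a log2 change of -2.06 (adjusted p = 1.07e-05). Between Ctnna3 and Reep3, the 3 sequences of chr10:66383049-66386347 were on no DMSO array and rose at least 19.8-fold, 12.1-fold and 10.0-fold with LPS (adjusted p = 0.00174, 2.91e-06 and 0.00156).

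The largest falls with LPS came from the interval between Klf14 and Mkln1. Mir29a, Mir29b-1 and the long noncoding RNA Lncpint lie there in RefSeq. The sequence at chr6:31078803-31078862 read 11.27, 12.17, 12.00 and 12.42 in DMSO and 7.90, 8.52, 8.64 and 8.94 in LPS+DMSO. Every LPS+DMSO array was below every DMSO array, and the log2 change was -3.47 (SE 0.29, adjusted p = 5.34e-07). The region chr6:31115515-31168433 further along fell alike, by -3.75 in the sequence with the largest change (adjusted p = 6.95e-07). Of 28 members in the interval 12 were tested, and the 6 in these 2 regions fell with LPS, by -3.75 to -3.15.

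Cordycepin without LPS lowered part of the same interval. The sequence at chr6:31078803-31078862 read 10.06, 10.68, 11.12 and 11.23, all below the DMSO arrays, and the log2 change was -1.20 (adjusted p = 0.00779). In all, 7 of the 12 were lower with cordycepin. They make up 7 of the 14 members of the whole set that were lower in that comparison, and include 3 of region chr6:31007184-31007725, whose changes with LPS (-0.60 to -0.31) were not called. Given with LPS, cordycepin changed none of the 12 past the threshold (-0.84 to 0.44), and 6 fell with LPS within cordycepin.

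The interval between Nr5a2 and Ptprc, with Mir181a-1 and Mir181b-1, fell as well. The sequence at chr1:139822744-139822803 read 7.54, 7.43, 8.12 and 7.97 in DMSO, 4.81, 5.23, 5.21 and 5.62 in LPS+DMSO, and 4.07, 3.33, 3.52 and 4.42 in LPS+cordycepin. The log2 change with LPS was -2.55 (adjusted p = 3.14e-06). No array of LPS+cordycepin had it well above background, and there it was at least 1.92-fold lower than in LPS+DMSO (adjusted p = 0.000563) and at least 6.63-fold lower than in cordycepin (adjusted p = 4.27e-07). Of 22 members 5 were tested and 4 fell with LPS, by -2.79 to -2.02. The other one, in region chr1:139713316-139913366, had a log2 change of 0.06 and was not called. These intervals were picked for their miRNA genes after the values had been seen.

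**Figure D2:**
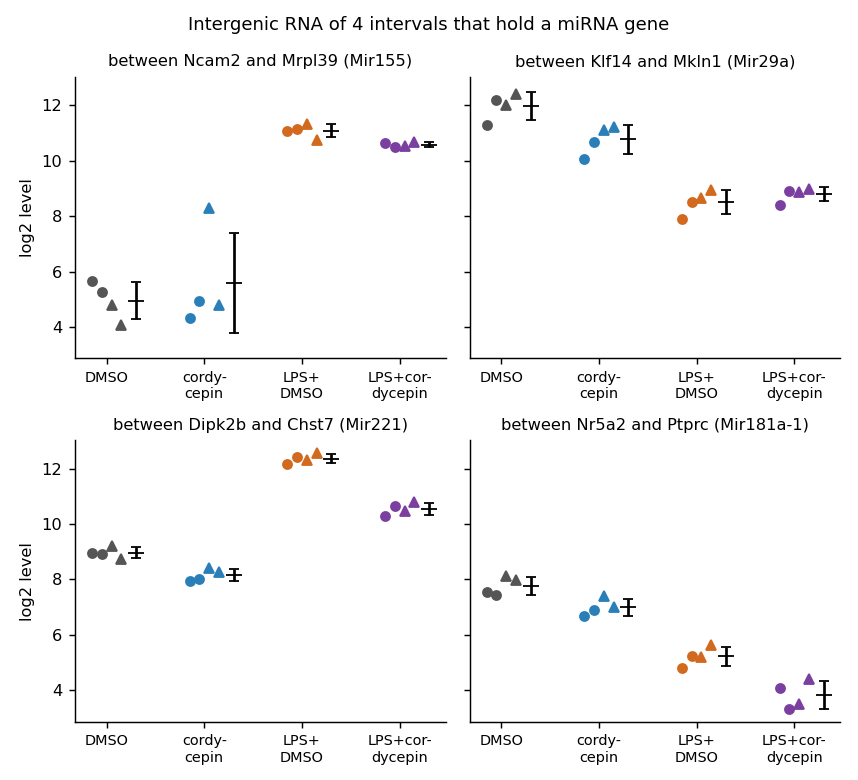
Log2 level on each of the 16 arrays of 1 sequence from each of 4 intervals that hold a miRNA gene, with the mean and SD of 4 replicates (bars) and circles for slide 1 and triangles for slide 2. The sequence between Ncam2 and Mrpl39 rose from a mean of 4.95 in DMSO to 11.08 in LPS+DMSO, that between Dipk2b and Chst7 from 8.96 to 12.36, and the others fell, from 11.97 to 8.50 (Klf14 to Mkln1) and from 7.76 to 5.22 (Nr5a2 to Ptprc).

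Cordycepin against DMSO asks what the drug did without a stimulus. The changes were almost all rises, with 250 of 2245 higher in 122 intervals (11.1%, against 5.56% of all sequences tested) and 14 lower in 9 intervals (0.624%, against 1.08%). The median log2 change was 0.05, and 0.04 over all sequences tested, so that most members lay near 0. Among the 1381 on all arrays 67 were higher (4.85%) and 6 lower (0.434%). The share higher was below the 5.56% of all sequences tested, and above the 2.04% of the 18071 on all arrays, of which 0.885% were lower. Of the 250, 37 were on no DMSO array. The counts were 152 higher and 15 lower within slide 1 alone and 281 and 7 within slide 2 alone.

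With LPS present the picture was similar and larger in number. LPS+cordycepin against LPS+DMSO gave 345 higher in 172 intervals (15.4%, against 7.12% of all sequences tested) and 32 lower in 21 intervals (1.43%, against 1.61%). The median log2 change was 0.06, and 0.04 over all. Among the 1381 on all arrays 105 were higher (7.60%) and 6 lower (0.434%). The share higher was near the 7.12% of all sequences tested, against 3.01% of the 18071 on all arrays, of which 1.30% were lower. Of the 345, 54 were on no LPS+DMSO array. The counts were 264 and 39 within slide 1 alone and 361 and 25 within slide 2 alone. Of the marker genes for other cell types, the B cell genes Cd79a and Cd79b rose in this comparison, by 2.63 and 1.76 on the log2 scale (adjusted p = 1.18e-05 and 0.00551), while the B cell marker Ms4a1 was well above background on no array. Their part in the result was not tested.

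The comparisons with and without LPS use different arrays. Of the 250 members higher with cordycepin without LPS, 227 were also higher with LPS, which is 90.8% of the 250 and 65.8% of the 345. Of the 14 lower without LPS, 5 were lower with LPS, 35.7% of the 14 and 15.6% of the 32. No member was called in opposite directions. This overlap was not counted over all sequences tested, so whether it is particular to this set was not tested.

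**Figure D3:**
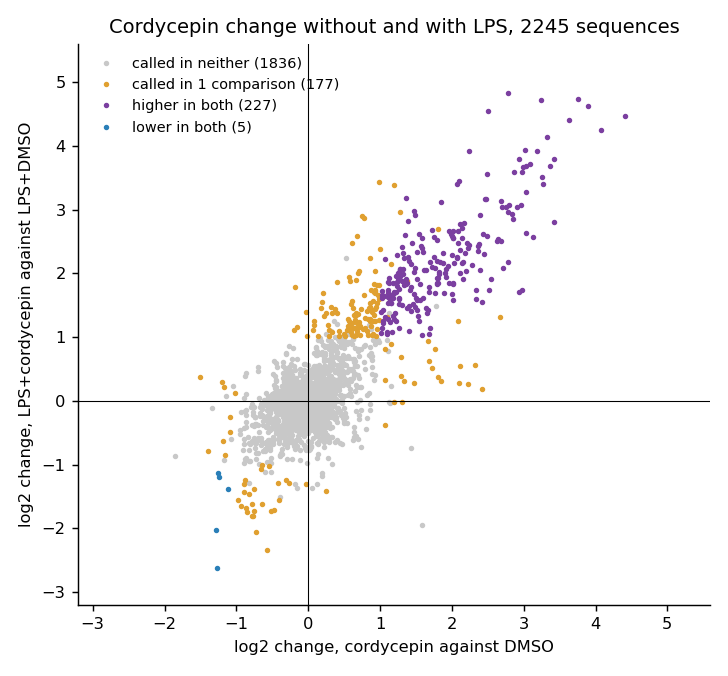
Log2 change of each of the 2245 tested intergenic sequences for cordycepin against DMSO (horizontal) and LPS+cordycepin against LPS+DMSO (vertical). Colours mark the 227 called higher in both comparisons, the 5 called lower in both, the 177 called in 1 of them and the 1836 called in neither, and the called sequences lie mostly above 0 on both axes.

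The largest log2 change among the rises with cordycepin without LPS came from between Lyn, a Src-family kinase of myeloid cells, and Rps20, a protein of the small ribosomal subunit. The sequence at chr4:3747110-3747169 read 3.91, 3.99, 4.09 and 4.22 in DMSO and 8.05, 8.30, 8.80 and 8.70 in cordycepin. With LPS it read 4.21, 4.60, 4.28 and 4.73 in DMSO and 8.62, 8.37, 9.37 and 9.34 in cordycepin. Neither DMSO condition had an array well above background and all 8 cordycepin arrays were. It was at least 18.5-fold higher without LPS (adjusted p = 4.22e-09) and at least 22.1-fold higher with LPS (adjusted p = 2.55e-09). The second sequence of the region, which holds AATAAA, was at least 4.53-fold higher without LPS (adjusted p = 0.00326) and its log2 change with LPS was 2.32 (adjusted p = 0.00154). Neither was called with LPS alone.

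Between Spsb4 and Slc25a36, a mitochondrial carrier of pyrimidine nucleotides, the sequence at chr9:96947863-96947922 read 5.52, 4.20, 3.16 and 2.22 in DMSO and 7.61, 7.58, 8.14 and 8.05 in cordycepin. LPS+DMSO read 3.35, 4.17, 3.73 and 2.64 and LPS+cordycepin 7.36, 7.74, 7.92 and 7.86. No array of either DMSO condition was well above background, and the rises were at least 14.3-fold (adjusted p = 3.05e-05) and at least 14.4-fold (adjusted p = 1.41e-05). The other sequence of the region rose at least 10.3-fold and 12.9-fold. The nearest protein-coding sequence upstream, that of Slc25a36 at 30.2 kb on the same strand, had log2 changes of -0.43 (adjusted p = 0.0266) and -0.55 (adjusted p = 0.00477) in the same comparisons, neither of them 2-fold.

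In the interval between Cerk (ceramide kinase) and Tbc1d22a the RNA was measurable without the drug. The sequence at chr15:86039021-86039080 read 7.20, 6.90, 7.09 and 7.40 in DMSO and 10.16, 10.51, 10.92 and 10.70 in cordycepin, a log2 change of 3.42 (SE 0.19, adjusted p = 9.4e-09). LPS alone lowered it to 5.88, 5.51, 5.46 and 5.64, a log2 change of -1.52 (adjusted p = 4.54e-05). LPS+cordycepin read 8.87, 9.44, 9.64 and 9.73, which was 3.79 above LPS+DMSO on the log2 scale (adjusted p = 2.71e-09). No 2 conditions overlapped.

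Other large rises were also called in both comparisons. The 3 sequences of chr8:19959345-20020379, in a cluster of predicted genes around Gm15319, rose with cordycepin at least 10.9-fold, 8.23-fold and 10.8-fold without LPS. The array also holds sequences for annotated transcripts inside this region, among them the noncoding 2610005L07Rik. Near-identical gene copies lie in that cluster, so which copy was read is uncertain. Between Leo1, a subunit of the Paf1 elongation complex, and Tmod3, which caps actin filaments, 5 of 6 sequences of chr9:75316023-75344401 were tested, and all 5 were higher in both comparisons, with the largest log2 change at 3.75 without LPS (adjusted p = 0.000302) and at least 22.4-fold with LPS (adjusted p = 2.36e-05). That region also holds an array sequence for the predicted gene Gm7972.

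**Figure D4:**
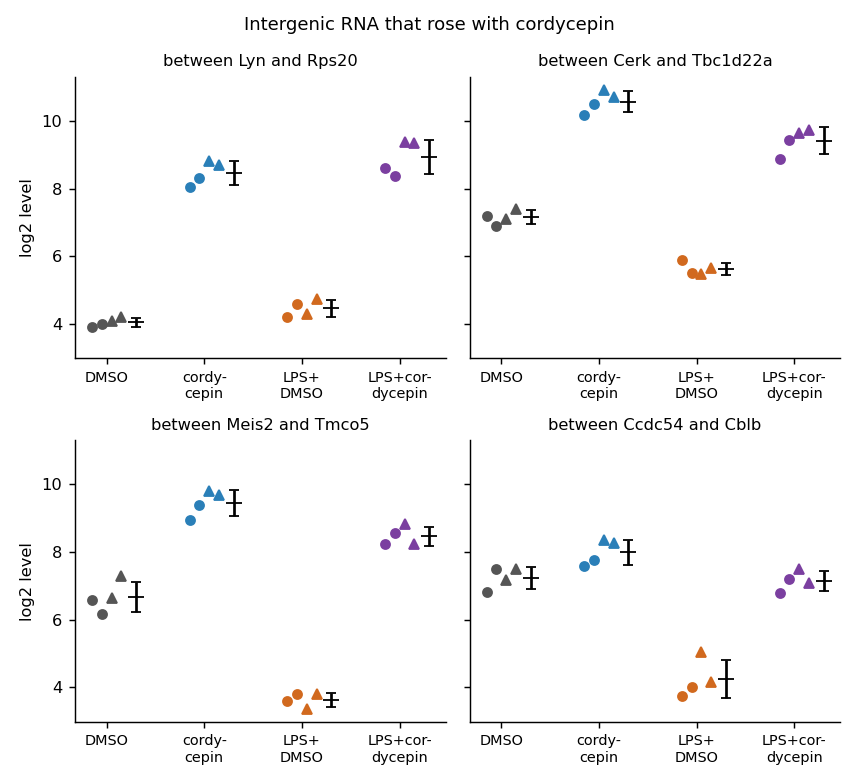
Log2 level on each of the 16 arrays of 1 sequence from each of 4 intervals, with the mean and SD of 4 replicates (bars), circles for slide 1 and triangles for slide 2. Means in cordycepin and in LPS+cordycepin were 8.46 and 8.93 (Lyn to Rps20), 10.57 and 9.42 (Cerk to Tbc1d22a), 9.45 and 8.46 (Meis2 to Tmco5) and 7.99 and 7.14 (Ccdc54 to Cblb), of which only the 7.99 was not called against its DMSO control.

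Few members fell with cordycepin. Besides the sequences between Klf14 and Mkln1 they included 1 sequence of chr9:30805020-30810645 between Adamts8 and Zbtb44, whose log2 change was -1.24 without LPS (adjusted p = 0.00013) and -1.19 with it (adjusted p = 0.000143). At chr16:3111550-3130500 the log2 changes were -1.29 (adjusted p = 0.00128) and -2.02 (adjusted p = 1.36e-05), and those of the other tested sequence there were -0.65, which was not called, and -1.61. The region chr16:3337275-3355950 holds near-identical copies of both of these, with 1 mismatch in 60 and in 57 aligned bases, so the falls in these 2 regions may not be separate observations and which copy was read is uncertain. In the second region, the sequence at chr16:3350651-3350710 read 5.37, 6.02, 6.07 and 5.84 in DMSO and 4.75, 4.81, 4.47 and 4.18 in cordycepin, where it was on no array and at least 2.41-fold lower (adjusted p = 0.0465). This call was lost in 19 of 39 alternative settings, the replicate number as a block among them. With LPS it read 8.79, 6.71, 7.08 and 7.09 in DMSO and 4.32, 4.00, 5.24 and 5.65 in cordycepin, a log2 change of -2.61 (adjusted p = 0.000189). At chr6:3283191-3284581 the log2 change was -1.39 without LPS (adjusted p = 0.0272) and -0.79 with it (adjusted p = 0.226), and the call without LPS was lost without DMSO replicate 1 or 2, without cordycepin replicate 2, 3 or 4, and within either slide. At chr1:182180931-182186106, between Psen2 and Itpkb, 4 of 5 sequences were tested and cordycepin with LPS lowered all 4, by -1.80 to -1.43, and none was called without LPS. The call without LPS was lost in 4 of 41 alternative settings at chr9:30805020-30810645 and in 5 of 41 at chr16:3111550-3130500. For both, these included normexp background correction, spiked-in control scaling and the authors' values.

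Few protein-coding genes near the named sequences were called, as was so for NM_ sequences in general. Of all NM_ sequences tested, 2.1% were higher and 1.3% lower with LPS, 3.0% and 1.3% with cordycepin without LPS, and 3.6% and 1.8% with cordycepin and LPS. Several named sequences had no such neighbour within 100 kb. They include those between Klf14 and Mkln1, Dipk2b and Chst7, Nr5a2 and Ptprc, Meis2 and Tmco5, Ccdc54 and Cblb, Plekhb2 and Hs6st1, and Haao and Zfp36l2. Of 15 distinct nearest protein-coding neighbours within 100 kb on either strand that were tested, none was called with LPS, none with cordycepin, and 1 in LPS+cordycepin against LPS+DMSO. That one was Mrpl39, a mitochondrial ribosomal protein gene on the opposite strand from the sequences named between Ncam2 and Mrpl39, with a log2 change of 1.05 (adjusted p = 0.00018). Over the 15, log2 changes with LPS ranged from -0.24 to 0.41 and with cordycepin without LPS from -0.70 to 0.95.

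Members were then divided by baseline level, as the number of DMSO arrays on which they were well above background. Of the 2245, 1737 were on all 4 DMSO arrays, 458 on 1 to 3 and 50 on none. Cordycepin without LPS raised 89 of the 1737 (5.12%, against 2.24% of all array sequences tested with that baseline), 124 of the 458 (27.1%, against 28.3%) and 37 of the 50 (74.0%, against 81.9%). The last 2 groups passed the filter through a condition other than DMSO, so rises there are in part fixed by the filter. LPS lowered 110 of the 1737 (6.33%, against 2.42%) and raised 15 (0.864%, against 1.46%). The 1737 include members that passed the filter only through DMSO, so falls there are in part fixed by the filter. Among the 1381 on all arrays LPS lowered 38 (2.75%, against 1.26% of the 18071 on all arrays). In the 458 it lowered 40 (8.73%, against 5.82%) and raised 30 (6.55%, against 6.86%). Of the 50, LPS raised 12 (24.0%, against 18.1%).

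They were also divided by their LPS response. Of the 150 members lowered by LPS, cordycepin raised 38 and lowered 4 without LPS, with a median log2 change of 0.41. With LPS it raised 80 and lowered 4, with a median of 1.13. Of the 57 raised by LPS, cordycepin raised 21 and lowered 2 without LPS (median 0.64), and with LPS it raised 11 and lowered 10 (median -0.22). Of the 2038 with no LPS call, cordycepin raised 191 and lowered 8 without LPS (median 0.04), and raised 254 and lowered 18 with LPS (median 0.03). The LPS call and LPS+cordycepin against LPS+DMSO share the LPS+DMSO arrays, and the LPS call and cordycepin against DMSO share the DMSO arrays. An error on shared arrays moves both, so these medians are a description. The same division was not made over all sequences tested, so whether these counts are particular to this set was not tested.

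LPS within cordycepin was compared as LPS+cordycepin against cordycepin, where 38 members in 21 intervals were higher (1.69%, against 1.64% of all sequences tested) and 65 in 36 intervals lower (2.90%, against 1.35%). Cd79a and Cd79b were higher here too, by log2 changes of 2.69 and 1.61 (adjusted p = 3.44e-05 and 0.0237), and Cd79a passed for the interaction described next (2.28, adjusted p = 0.0315). Their part in the result was not tested. The median log2 change was -0.05, and -0.04 over all. Among the 1381 on all arrays 8 were higher (0.579%, against 0.935% of the 18071 on all arrays) and 13 lower (0.941%, against 0.553%). Of the 57 raised by LPS in DMSO, 26 were also raised within cordycepin, and of the 150 lowered, 55 were also lowered. These overlaps were not counted over all sequences tested either. The sequence with the largest rise after that between Ncam2 and Mrpl39 lay between Plekhb2 and Hs6st1. It read 6.88, 4.99, 5.54 and 6.01 in cordycepin and 10.32, 10.29, 10.71 and 10.96 in LPS+cordycepin, a log2 change of 4.71 (adjusted p = 1.81e-07). Between Tet3, a methylcytosine dioxygenase, and Dguok, 3 of 5 sequences of chr6:83368261-83407280 were tested and fell with LPS in DMSO by -2.85 to -2.49 and within cordycepin by -2.71 to -2.53. The sequence of chr15:73455424-73477275 between Slc45a4 and Gpr20 was at least 3.79-fold lower (adjusted p = 0.000284).

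Whether the LPS response differed between cordycepin and DMSO was tested as the interaction, the LPS change in cordycepin less that in DMSO. Few members passed, 7 higher in 5 intervals (0.312%, against 0.194% of all sequences tested) and 5 lower in 4 intervals (0.223%, against 0.148%). With the replicate number, which marks the culture day, as a block the counts were 17 and 10. On slide 1 alone they were 0 and 1, on slide 2 alone 2 and 1, and leaving out replicate 2 of every condition left 0 higher and 2 lower. Leaving out either replicate 1, 3 or 4 left 0 lower, with 4, 1 and 1 higher.

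Of the 7 with a higher interaction, 6 were also called lower with LPS in DMSO. The sequence between Meis2 and Tmco5 (chr2:115900741-115900800) read 6.58, 6.17, 6.65 and 7.28 in DMSO and 3.58, 3.79, 3.36 and 3.80 in LPS+DMSO, where it was on no array and at least 6.82-fold lower (adjusted p = 1.87e-07). In cordycepin it read 8.94, 9.38, 9.79 and 9.70 and in LPS+cordycepin 8.23, 8.56, 8.81 and 8.24, at least 23.6-fold above LPS+DMSO (adjusted p = 1.8e-09). The fitted log2 interaction was 2.04 (adjusted p = 0.011), and with LPS+DMSO set at its bound it was at least 1.78. The second sequence printed from this interval, which holds AATAAA and was likewise on no LPS+DMSO array, had a fitted interaction of 2.04 (adjusted p = 0.0107), which the bound did not change.

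Between Ccdc54 and Cblb, a ubiquitin ligase, RefSeq lists the long noncoding RNA Dubr and Mir6363. The sequence at chr16:50753311-50753370 read 6.80, 7.48, 7.17 and 7.49 in DMSO and 3.74, 4.01, 5.03 and 4.16 in LPS+DMSO, a log2 change of -3.00 (adjusted p = 1.02e-06). In cordycepin it read 7.58, 7.76, 8.35 and 8.27 and in LPS+cordycepin 6.78, 7.20, 7.51 and 7.08, a log2 change of -0.85 with LPS (adjusted p = 0.0664). The interaction was 2.15 (adjusted p = 0.0141). All 3 sequences tested there fell with LPS and were higher in LPS+cordycepin than in LPS+DMSO, by 1.94 to 2.91, and 2 of the 3 passed for the interaction.

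The sequence between Plekhb2 and Hs6st1 went the other way, as it rose with LPS and rose more in cordycepin. DMSO read 4.86, 4.21, 5.01 and 5.38 and LPS+DMSO 7.56, 7.04, 7.13 and 6.81, a log2 change of 2.27 (adjusted p = 0.000196). LPS+cordycepin was 3.43 above LPS+DMSO on the log2 scale (adjusted p = 1.67e-06) and the interaction was 2.44 (adjusted p = 0.0315).

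Among the 5 with a lower interaction, 1 lay in chr17:84470764-84486339 between Haao and Zfp36l2, an mRNA decay factor. This sequence, at chr17:84477680-84477739, read 4.05, 5.06, 4.41 and 5.28 in DMSO, 6.62, 6.63, 7.79 and 7.47 in cordycepin, and with LPS 6.40, 6.97, 6.47 and 6.92 in DMSO and 6.46, 6.45, 7.29 and 7.31 in cordycepin. The DMSO arrays were below all others. Log2 changes were 1.99 with LPS (adjusted p = 0.000479), 2.43 with cordycepin (adjusted p = 5.51e-05) and -2.24 for the interaction (adjusted p = 0.0441). Of the 4 sequences tested in the region, 3 were higher with LPS (log2 changes of all 4 from 0.98 to 1.99), 4 with cordycepin, and none was called in LPS+cordycepin against LPS+DMSO or against cordycepin. For the interaction 1 of the 4 passed, with values from -2.24 to -1.20. Next to Irf2bpl, 2 sequences of chr12:88172043-88172731 had interactions of -1.22 and -1.44 (adjusted p = 0.011 and 0.0213). For 1 sequence of chr14:73729977-73751877 next to Itm2b it was -1.45 (adjusted p = 0.0414), and for that between Dipk2b and Chst7 -1.02 (adjusted p = 0.032).

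Calls within an interval had 1 direction. Of the 522 intervals with 2 or more tested members, none held members called in opposite directions in any comparison. With cordycepin, 88 held at least 1 member that was higher and in 49 of them all tested members were. The same counts with LPS present were 117 and 77. With LPS alone 54 held a lower member, in 24 of them all, and 22 held a higher member, in 9 of them all. Sequences of 1 interval may read the same RNA, and calls with cordycepin were almost all rises. These counts were not made for other array sequences, so whether they are particular to this set was not tested. Calls were mostly on 1 strand. In 146 intervals with members tested on both strands, 18 had a call of lower with LPS on 1 strand and 0 on both. Cordycepin gave 21 with a call of higher on 1 strand and 2 on both, and with LPS 29 and 2. No other set was counted by strand. As few members were called in any comparison, these counts do not show that the strands differ.

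Distance from the gene upstream was then set against the calls, in bins chosen after the values had been seen. The share of sequences higher in cordycepin than in DMSO was 18.2% at 0 to 5 kb, 36.2% at 5 to 10 kb, 41.8% at 10 to 15 kb and 31.9% at 15 to 20 kb, all outside the set described here. Just inside the limit it was 23.5% at 20 to 25 kb (119 sequences) and 18.6% at 25 to 30 kb (86), then 14.7% at 30 to 50 kb, 10.6% at 50 to 100 kb, 11.1% at 100 to 200 kb and 8.29% beyond 200 kb (941). With LPS the shares within the set went from 28.6% at 20 to 25 kb to 12.0% beyond 200 kb. As a whole, 268 of the 880 tested intergenic sequences closer than 20 kb were higher with cordycepin (30.5%) and 2 were lower, and with LPS 311 (35.3%) and 10. All bins include sequences that passed the filter only through a cordycepin condition, so these shares are in part fixed by the filter. Of the 2830 intergenic sequences closer than 20 kb, 562 were well above background on all 4 DMSO arrays and 818 on all 4 cordycepin arrays. Shares by distance were not computed for sequences on all arrays. The share lowered by LPS was 6.72% at 20 to 25 kb, 3.49% at 25 to 30 kb and 7.97% beyond 200 kb.

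**Figure D5:**
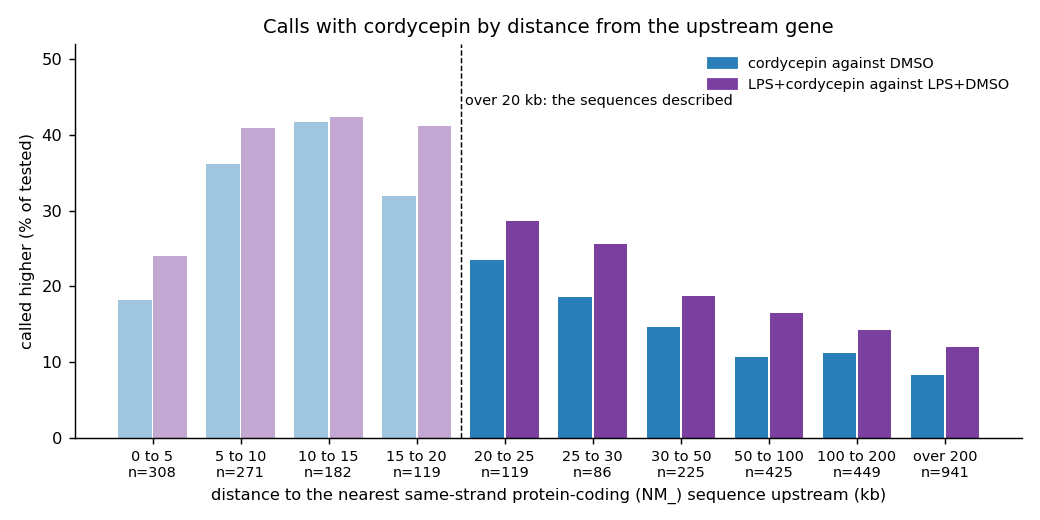
Percent of tested intergenic sequences called higher in cordycepin against DMSO and in LPS+cordycepin against LPS+DMSO, by distance to the nearest same-strand protein-coding sequence upstream in kb (n under each bin). Bins left of the dashed line lie outside the set described, and to its right the shares went from 23.5% and 28.6% at 20 to 25 kb to 8.29% and 12.0% beyond 200 kb. Sequences that passed the filter only through a cordycepin condition are included.

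The sequences themselves gave few distinguishing features. Their median GC content was 45% in the whole set, among those tested and among the 227 higher with cordycepin in both comparisons. AATAAA, searched as these letters on the strand that is read, was in 22 of the 227 (9.69%), in 17 of the 150 lowered by LPS (11.3%) and in 1 of the 57 raised by LPS (1.75%). Of tested members not higher in either comparison with cordycepin it was in 4.37%, of all members in 3.98%, of all array sequences in 10.1% and of NM_ sequences in 13.2%. A match is a description of the 60 bases and does not show that the site is used. Sequences were also matched letter for letter to the promoter windows of RefSeq. Of 13233, 142 lay in such a window, 62 of the matches on the strand of the gene and 84 on the opposite strand. Only 11 and 19 of these were tested, of which 2 and 1 were higher with cordycepin. A further 4 matched a miRNA hairpin, none of them tested.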

How the data were processed

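Total RNA of 16 RAW264.7 cultures was labelled with Cy3 by a kit that primes on poly(A) and hybridised to 1-colour Agilent arrays. The priming favours polyadenylated RNA, and how that affects values under a polyadenylation inhibitor was not tested. The deposited scanner files hold an intensity per spot, from which the authors' Feature Extraction software (10.10.1.1 in the submitters' processing notes, 10.7.3.1 in the file headers) had subtracted background and a spatial trend, and 0 or 1 flags. The deposited value table holds log2 values between 3.73 and 18.73 (25775 rows, medians 9.55 to 9.58, limma named with no role), increasing with the log2 scanner values (r 0.995 to 0.998) in the same direction. Its scale is thus log2, whereas its centring and method are not given in the sources used here, and it served as an alternative. Doses come from the study's methods.

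Flagged outlier spots were left out (127 missing values), log2 intensities of a sequence averaged, and each array scaled to its 75th percentile over the 18071 sequences well above background on all 16 arrays. The 4 condition means were fitted to all 21605 tested sequences with limma 3.58.1 in R 4.3.3, with no block, and p was adjusted by Benjamini-Hochberg. Depth is not defined for arrays, and the number of arrays limits precision. The fit was tested on simulated data. Python 3.11.15, numpy 2.4.6, pandas 2.3.3 and matplotlib 3.10.9 were used.

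The replicate number marks the culture day, per the labels. The mean correlation of residuals was 0.19 between arrays that share a number (-0.07 to 0.42, over 0.1 in 20 of 24 pairs), 0.17 where only the slide was shared and -0.18 between the slides.

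Members and lists were chosen with earlier results of these data known. Named are the 5 members with the largest rise and fall with LPS and with cordycepin without and with LPS, the 3 for LPS within cordycepin and for the interaction (called, same direction in 4 of 4 replicates, 1 per region), the 5 brightest in DMSO, of which 1 is not reported here, and the further members of their regions. Members on chromosome 18 (451) are counted and not named, and 118 intergenic sequences without a position were left out. The intervals with miRNA genes and the distance bins were chosen after the values were seen. Gene neighbours come from RefSeq (GRCm38.p6) by symbol, and array positions are mm9.

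Alternatives were quantile, median, all-probe percentile and spiked-in scaling, normexp, the authors' values, other filters, thresholds and distances, 1 sequence per interval, blocks for replicate number and slide, each slide alone, an intensity trend with robust estimation, only the groups compared, the methods' t-test, and leaving out each array and each replicate number.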

Additional observations from a re-analysis of the deposited data

Results flagged for a closer look

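In 5 of 148 groups of 4 arrays among the named sequences, 1 array lay far from the other 3, by a gap past Dixon's critical value, and chance alone gives about 1 in 20 groups. The sequence between Ncam2 and Mrpl39 (chr16:84708695-84708806) read 8.278 in cordycepin replicate 3, with the nearest other array at 4.945. The sequence of chr10:66383049-66386347 with the largest LPS response read 4.28 in LPS+cordycepin replicate 3 (nearest 6.438). That of chr9:75316023-75344401 read 7.617 in DMSO replicate 2 (nearest 4.42). At chr6:3283191-3284581, LPS+cordycepin replicate 3 read 6.748 (nearest 6.928), and at chr14:78924115-78938125, LPS+DMSO replicate 1 read 18.276 (nearest 17.834).

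The change with LPS differed between cordycepin and DMSO in 12 members, by the interaction term of limma. It was higher in cordycepin by 2.44 on the log2 scale at chr1:36012298-36020311, by 2.15 and 1.37 in 2 sequences of chr16:50752452-50753589, by 2.04 and 2.04 in 2 sequences of chr2:115900355-115900904, by 1.82 at chr19:57426515-57435165 and by 1.35 at chr7:134369091-134376366. At chr19:57426515-57435165 mean log2 levels were 7.52 in DMSO and 8.89 in cordycepin without LPS, and 5.04 and 8.22 with LPS (adjusted p = 0.00499), and at chr7:134369091-134376366 they were 7.56, 9.65, 5.32 and 8.77 in the same order (adjusted p = 0.014). The term was -2.24 at chr17:84470764-84486339, -1.45 at chr14:73729977-73751877, -1.44 and -1.22 in 2 sequences of chr12:88172043-88172731, and -1.02 at chrX:18734106-18744367.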

How the results depend on the processing

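Counts are members higher and then lower. The main counts were 57 and 150 for LPS, 250 and 14 for cordycepin, 345 and 32 for cordycepin with LPS, 38 and 65 for LPS within cordycepin, and 7 and 5 for the interaction. Counts moved by over 1.5 times as follows, and the cause was not tested unless the setting itself removes sequences or arrays. Normexp background correction gave 19 and 51, 104 and 3, 202 and 5, 21 and 17, and 3 and 2 in that order. Sequences well above background on all arrays gave 13 and 38, 67 and 6, 105 and 6, 8 and 13, and 1 and 2. With 1 sequence per interval the counts were 25 and 67, 98 and 7, 142 and 15, 17 and 26, and 4 and 2. The authors' value table gave 34 and 71 for LPS, 6 lower for cordycepin, 215 higher for cordycepin with LPS, and 3 and 3 for the interaction. Spiked-in control scaling gave 28 higher for LPS, 2 lower for cordycepin, 21 higher for LPS within cordycepin, and 0 and 1 for the interaction. It moved the median log2 change of all tested sequences by -0.11 for LPS, -0.13 for cordycepin with LPS, -0.30 for LPS within cordycepin and -0.19 for the interaction, and the 75th percentile over all probes moved that for cordycepin with LPS by -0.12. The share of higher among the called then went from 36.9% to 24.1% for LPS within cordycepin with spiked-in scaling, and for the interaction from 58.3% to 0% with spiked-in scaling and to 47.1% (8 and 9) with the percentile over all probes. Quantile normalization gave 30 lower for cordycepin. Members' median changes lie near 0, and their sign turned under quantile, all-probe percentile or spiked-in scaling in several comparisons. No filter on dim sequences left 0 and 0 for the interaction. Without a minimum fold the counts were 98 and 264 for LPS, 64 lower for cordycepin, 93 lower for cordycepin with LPS, and 62 and 121 for LPS within cordycepin. An adjusted p under 0.01 gave 8 lower for cordycepin, and 1 and 0 for the interaction. Intensity trend with robust estimation gave 3 lower for the interaction. The methods' t-test after Benjamini-Hochberg adjustment gave 35 higher for LPS, 7 lower for cordycepin and 18 lower for cordycepin with LPS, and at an unadjusted p 59 and 152, 252 and 15, 343 and 32, and 56 and 74; it was not run for the interaction, to which the fit of only the groups compared does not apply either. A limit of 10 kb gave 12 higher for the interaction and one of 50 kb gave 2 lower.

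With the replicate number as a block the interaction gave 17 and 10, and with the slide as a block 16 and 9. The replicate block moved no other count by over 1.5 times and ended no other call of a named sequence than that at chr16:3350651-3350710 for cordycepin. Slide 1 only gave 37 higher for LPS, 152 higher for cordycepin, 39 lower for LPS within cordycepin, and 0 and 1 for the interaction. Slide 2 only gave 7 lower for cordycepin, and 2 and 1 for the interaction. Leaving out each replicate number or array gave 42 to 57 and 119 to 163 for LPS, 196 to 268 and 4 to 17 for cordycepin, 304 to 358 and 22 to 43 for cordycepin with LPS, 31 to 45 and 48 to 81 for LPS within cordycepin, and 0 to 8 and 0 to 7 for the interaction. The 14 lower with cordycepin became 9 without replicate 1, 4 without replicate 2, 9 without DMSO replicate 2, 6 without cordycepin replicate 1 and 8 without cordycepin replicate 2. The 5 lower for the interaction became 1 without LPS+DMSO replicate 4, and changed with most other arrays as well. There were 2 without LPS+DMSO replicate 1, 2 or 3 or cordycepin replicate 3 or 4. There were 3 without DMSO replicate 1, 3 or 4 or cordycepin replicate 1. Without DMSO replicate 2 there were 6, and without cordycepin replicate 2 there were 4.

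Of 1672 recomputed values of the 42 named results, 1517 kept their direction and call, 155 kept the direction and lost the call, 82 of them with an array or replicate number left out, and 0 changed direction. In all, 25 of the 42 kept their call throughout, and every named interaction lost it without replicate 2. Signal near background limits the rest, as 6633 members were well above it on no array.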
